A study of Mus musculus with 8 samples.

Results

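Proximal tubules isolated from mouse kidneys 24 h after cisplatin were compared with proximal tubules at 0 h, in linear RNA and in circular RNA. The libraries were taken by their labelled time, 2 at 24 h and 2 at 0 h, which are 4 of the 8 libraries of a series that also holds 48 and 72 h. All mice were male C57BL/6, with no age in the labels. The 24 h group had received an intraperitoneal injection of cisplatin, a platinum drug, at 30 mg/kg. The 0 h libraries carry the same protocol text and a time of 0 h, and the labels do not say whether those mice were injected. Tubular cells of the proximal segment came from renal cortex, ribosomal RNA was removed, and the library kit is labelled as one for small RNA. The duplicates are called biological, but neither separate animals nor pools are named, so the p-values describe no more than the spread among these libraries.

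The proximal tubule takes back glucose, amino acids, phosphate and protein from the filtrate, and it fuels this work largely by oxidizing fatty acids. Cisplatin enters tubule cells through organic cation and copper transporters and binds DNA, and p53 is a main transcription factor of the damage response. Injured tubule cells are known to make the markers lipocalin 2 and KIM-1, growth factors and cytokines, and to lose transport functions.

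Linear RNA was given as FPKM (fragments scaled to transcript length and library size), 1 value for each gene row and library. Some rows cover more than 1 gene. Such merged rows are named with the other genes they span, and their values cannot be divided between those genes. Other rows reach past the annotated gene and may overlap genes that have rows of their own. Among genes named below these include Aass, Atf3, Bid, Btg2, C1qa, Cdkn1a, Cdt1, Cebpa, Cldn2, Col4a4, Coq10b, Csf1r, Ddb2, Ehhadh, Ggt1, Havcr1, Herpud1, Hlf, Hmox1, Hnrnpu, Hspa8, Hyou1, Itgam, Klf2, Klf6, Lamb1, Lrp2, Maf, Mdm2, Ncl, Nop58, Oasl2, Pdk2, Phlda3, Pkm, Plk2, Polk, Rev1, Rrm1, Slc2a1, Slc2a2, Slc31a1, Slc7a12, Srxn1, Vdr, Xpc, Zfas1 and Zfp644. At 24 h the FPKM values of a library summed to 375186 and 348891, and at 0 h to 448667 and 452114. They do not give the depth. One subunit gene of mitochondrial cytochrome oxidase, mt-Co1, stood at 0 in the table for both 24 h libraries, against 19149 and 18120 FPKM at 0 h, and no fold is given for it. Pearson's r of log2(FPKM + 1) across tested rows was 0.989 between the 24 h libraries, 0.994 between the 0 h libraries, and 0.918 to 0.921 between libraries of different groups (genes are not independent replicates). circRNA counts, of reads across the back-splice that closes a circle, totalled 17057 and 17348 at 24 h, against totals of 13603 and 18171 at 0 h.

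Among the genes with the largest rises was metallothionein Mt2, and its neighbour Mt1 was also called. Both encode small proteins that bind zinc, copper and other metals, and the metal-sensing factor MTF-1 is known to act on their promoters through short metal response elements. Their promoters are shown because the pair rose together. The windows run from 250 bases before to 50 bases after the start of each gene, 300 bases on the + strand in the RefSeq table for GRCm38.p6, at chr8:94172368-94172667 for Mt2 and chr8:94178839-94179138 for Mt1. Capitals mark each match, on either strand, to the 2 forms of the metal response element core searched, TGCACNC and TGCGCNC, where N is any base.
Mt2: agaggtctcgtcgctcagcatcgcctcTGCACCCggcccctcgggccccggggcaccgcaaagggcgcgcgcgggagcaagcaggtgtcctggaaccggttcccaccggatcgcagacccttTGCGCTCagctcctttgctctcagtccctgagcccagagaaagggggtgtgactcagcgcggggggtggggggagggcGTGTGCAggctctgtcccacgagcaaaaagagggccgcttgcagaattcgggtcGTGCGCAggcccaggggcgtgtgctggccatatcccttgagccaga
Mt1: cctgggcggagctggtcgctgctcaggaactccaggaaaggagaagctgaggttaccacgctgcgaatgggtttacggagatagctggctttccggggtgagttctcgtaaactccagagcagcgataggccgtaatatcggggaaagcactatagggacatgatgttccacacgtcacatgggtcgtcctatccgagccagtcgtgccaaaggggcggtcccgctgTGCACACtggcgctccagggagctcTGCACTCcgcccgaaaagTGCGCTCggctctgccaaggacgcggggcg
The Mt2 window held 4 matches and the Mt1 window 3. Of related genes also searched, the Slc30a1 window held 2 and the Mt3 and Mt4 windows 1 each. Of 32851 promoter windows of the same length, 25.7% held at least 1 match, 1.97% at least 3 and 0.517% at least 4. A match is a description of these letters and no evidence of binding.

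Mt2 (chromosome 8, 94171917 to 94173560, mm10) had 683 and 515 FPKM at 24 h, against 55.8 and 50.9 FPKM at 0 h. Its log2 fold change was 3.45 ± 0.117 (SE) with adjusted p = 1.9e-07 in limma with Benjamini-Hochberg adjustment. Mt1 (chromosome 8, 94178215 to 94180257) had 89.5 and 82.9 FPKM at 24 h and 26.8 FPKM in both 0 h libraries, a log2 fold change of 1.65 ± 0.0793 (limma adjusted p = 6.0e-07). In both genes the 24 h libraries lay above both 0 h libraries, which for Mt2 was a condition for being listed among the largest rises. Mt3, the form best known from brain, was higher at a low level, with 1.29 and 1.11 FPKM at 24 h and 0.115 and 0.644 FPKM at 0 h. Mt4 was listed at 0 in all 4 libraries. The row of Mtf1, which encodes the metal-sensing factor and whose row also spans Inpp5b, fell to 9.16 and 8.17 FPKM at 24 h, against 20.2 and 19.6 FPKM at 0 h. The zinc importers Slc39a14 and Slc39a8 fell as well, by 0.42 and 0.57 on the log2 scale. Of 7 tested genes of metallothioneins and metal handling 4 were higher, Mt2, Mt1, Mt3 and Slc30a1, and 3 lower.

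Across the transcriptome, limma called 65.8% of 10757 tested rows, 25.8% higher and 40.0% lower at 24 h, and the libraries of both groups did not overlap in 81.8%. Rises of at least 2-fold made up 5.44% and falls of at least 2-fold 9.31%. With the same median in every library limma called 3451 rows higher and 3619 lower, after quantile normalisation 3241 and 3544, and with the same total without mitochondrial rows 3792 and 3185, against 2772 and 4304 as deposited. The median log2 fold change of all tested rows was -0.12 as deposited and 0.07 under the last scaling, so medians of gene lists are given relative to the median of all tested rows and single genes as measured. A gene low at 0 h could pass the filter of 1 FPKM in 2 libraries through its 24 h libraries alone, so counts over tested list members are descriptions. They are to be read beside the 25.8% higher and 40.0% lower of all tested rows. Of 1024 genes on 59 lists, rows named for the gene existed for 904, and 827 passed the filter.

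The 15 largest rises ran from 3.25 to 6.93 on the log2 scale. The largest was in the row named Krt12, which takes in Krt20, the gene of an epithelial keratin known from injured tubules, with 266 and 208 FPKM at 24 h, against 0.793 and 1.09 FPKM at 0 h. Cdkn1a, which encodes the cell cycle brake p21 (chromosome 17, 29086268 to 29100722), had 57.0 and 49.6 FPKM at 24 h, against 1.34 and 1.67 FPKM at 0 h. Atf3, a stress transcription factor, had 27.9 and 26.5 FPKM at 24 h, against 0.651 and 0.536 FPKM at 0 h. None of these groups overlapped, which was a condition for a place among the 15. Others among the 15 were the stress kinase Plk2, the urokinase receptor Plaur, the receptor tyrosine kinase Epha2, Gadd45b, the growth inhibitor Btg2, and Phlda3, a p53-induced repressor of AKT. Tnfrsf12a, the receptor of the cytokine TWEAK, in a row with Thoc6, had 195 and 168 FPKM at 24 h, against 14.8 and 13.4 FPKM at 0 h. S100a8, a calcium-binding protein of neutrophils, had 13.0 and 13.8 FPKM at 24 h, against 0.317 and 0.549 FPKM at 0 h.

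The 15 largest falls ran from -2.55 to -2.95 on the log2 scale. Timd2, a member of the gene family of KIM-1, had 7.80 and 7.17 FPKM at 24 h, against 60.6 and 68.9 FPKM at 0 h; its row overlaps that of Havcr1 on the other strand, which moved the opposite way. Gatm, the first enzyme of creatine synthesis (chromosome 2, 122594467 to 122611303), had 44.4 and 44.2 FPKM at 24 h, against 324 and 323 FPKM at 0 h. Cyp24a1, which breaks down active vitamin D, had 1.77 and 1.32 FPKM at 24 h, against 15.6 and 13.5 FPKM at 0 h. The 24 h libraries of all 3 genes lay below both 0 h libraries, again a condition for a place among the 15. Klf15, a transcription factor of amino acid and fat metabolism, had 3.72 and 2.88 FPKM at 24 h, against 28.1 and 25.5 FPKM at 0 h. Hsd11b2, which inactivates glucocorticoids in mineralocorticoid target cells, had 2.53 and 2.37 FPKM at 24 h, against 22.2 and 20.6 FPKM at 0 h. Trim63, a ubiquitin ligase known from muscle atrophy, had 0.344 and 0.596 FPKM at 24 h, against 8.46 and 7.93 FPKM at 0 h. Other members were Adcy6, an adenylyl cyclase, Coq10b of coenzyme Q biology, Pomt1 of protein O-mannosylation, Acadsb in a row with Pstk, and Cyp4a12a in a row with Cyp4a12b, fatty acid hydroxylases of male mouse kidney.

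**Figure D1:**
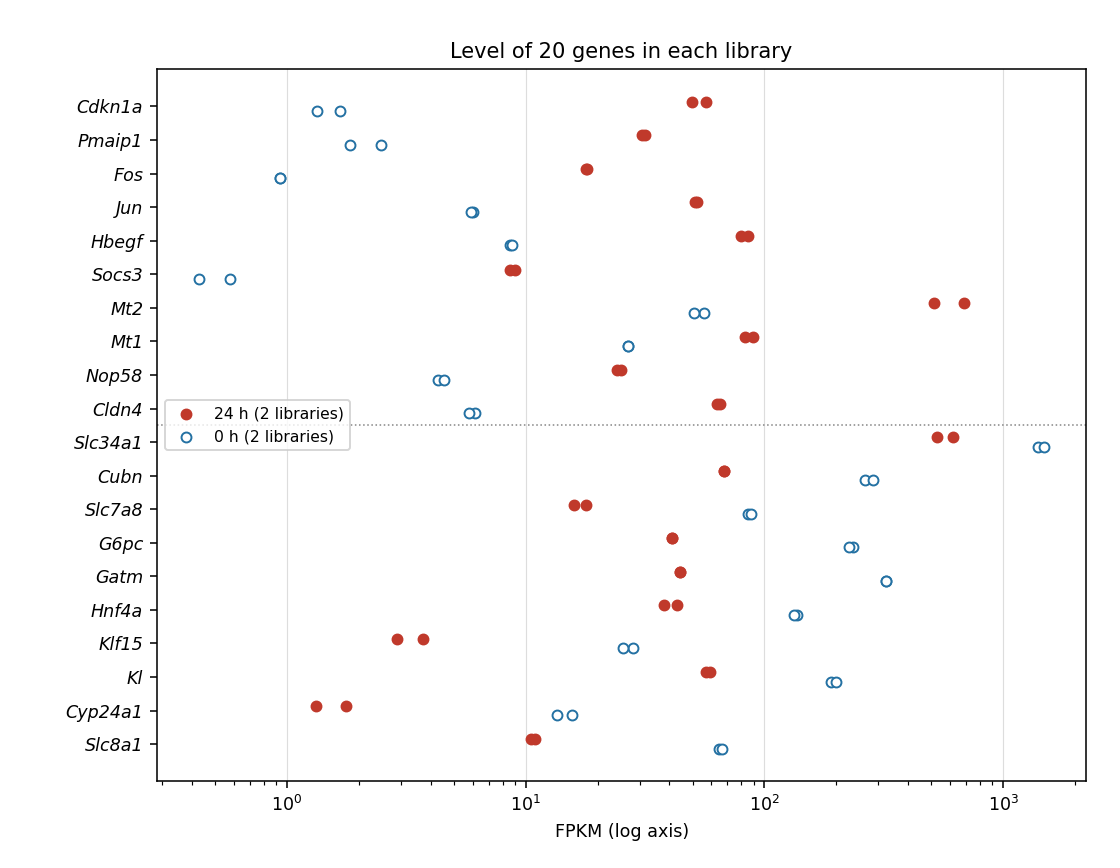
FPKM on a log axis in each library for 20 genes, with filled points for the 2 libraries at 24 h and open points for the 2 libraries at 0 h. Above the dotted line are genes higher at 24 h, such as Cdkn1a with 57.0 and 49.6 FPKM. Below it are genes lower at 24 h, such as Gatm with 44.4 and 44.2 FPKM. The libraries of both groups overlap in none of these 20 chosen genes, and they did not overlap in 81.8% of all tested rows.

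Of 26 tested markers of tubular injury 22 were higher and 2 lower (median 1.31 above all tested rows). Havcr1, which encodes KIM-1, was still low, with 2.46 and 2.53 FPKM at 24 h, against 0.328 and 0.266 FPKM at 0 h, a log2 fold change of 1.43 ± 0.141 (limma adjusted p = 3.1e-05). Its level at 24 h was below that at 48 and 72 h, by 3.53 and 6.23 on the log2 scale. The other injury markers with the smallest p were Cldn4, Plaur, Lcn2 and Timp1, and the members called lower were Itgb6 and Plau.

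Immediate-early and AP-1 genes, which encode fast transcription factors of stress and growth signals, were nearly all called higher where tested. Of 33 on the list 29 had a row and 25 passed the filter. Members below 1 FPKM at 0 h, such as Fos, passed only through later libraries, so the count is a description. Of 25 tested, 24 were higher and none lower, with a median 1.58 above that of all tested rows; Klf2 was the member not called. Jun had 52.1 and 51.3 FPKM at 24 h, against 6.01 and 5.93 FPKM at 0 h. Fos had 18.1 and 17.9 FPKM at 24 h, against 0.940 and 0.935 FPKM at 0 h. Klf6 had 69.6 and 66.8 FPKM at 24 h, against 7.87 and 8.02 FPKM at 0 h. The libraries within each group lay close together in all 3 genes.

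Of 36 tested p53 targets 27 were higher and 4 lower (median 1.22 above all tested rows), with 1 lower after quantile normalisation. Mdm2, the ubiquitin ligase that limits p53, had 56.5 and 41.2 FPKM at 24 h, against 7.19 and 8.39 FPKM at 0 h. Ccng1, cyclin G1, had 271 and 231 FPKM at 24 h, against 72.6 and 82.0 FPKM at 0 h. Not every member of the list was called. Ddb2 and Xpc, whose products find bulky DNA lesions for nucleotide excision repair, were among those not called (limma adjusted p = 0.17 and 0.20). Ddb2 had 1.47 and 1.75 FPKM at 24 h and 1.27 and 1.37 FPKM at 0 h.

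Among DNA repair genes, 6 of 27 were higher and 10 lower, a split that turned to 10 and 8 with the same median and to 11 and 6 with the same total without mitochondrial rows. Of all tested rows 25.8% were higher and 40.0% lower. Ercc1, which cuts DNA beside platinum adducts, had 15.2 and 13.5 FPKM at 24 h, against 5.70 and 5.36 FPKM at 0 h. Polk and Rev1, polymerases that copy past damaged bases, rose by 1.41 and 0.72 on the log2 scale. Parp1, the poly(ADP-ribose) polymerase that senses strand breaks, had 4.17 and 4.07 FPKM at 24 h, against 10.4 and 10.2 FPKM at 0 h.

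Cell cycle genes held calls of both directions, as did all tested rows (25.8% higher, 40.0% lower). Of 18 genes of arrest and G1, 10 were higher and 6 lower. Gadd45a, a growth arrest gene, had 53.1 and 51.4 FPKM at 24 h, against 10.4 and 11.4 FPKM at 0 h. Of 19 S phase genes 4 were higher and 7 lower, and without 0 h library b 4 and 4. Cdt1, which licenses replication origins, rose by 1.34, while Rrm1, the large subunit of ribonucleotide reductase, fell by 0.64. Of 12 mitosis genes 1 was higher and 3 lower. The proliferation marker Mki67 was at 0.456 and 0.388 FPKM at 24 h and 0.229 and 0.358 FPKM at 0 h and was not called (limma adjusted p = 0.26).

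In the apoptosis and necroptosis list 18 of 29 genes were higher and 5 lower (median 0.63 above all tested rows), and 3 were lower after quantile normalisation. Pmaip1, which encodes the BH3-only protein NOXA, had 30.8 and 31.6 FPKM at 24 h, against 1.83 and 2.48 FPKM at 0 h. Tnfrsf10b, the death receptor of TRAIL, had 5.89 and 5.85 FPKM at 24 h, against 0.534 and 0.496 FPKM at 0 h. The death effector Bax, in a row with Dhdh, rose by 1.19. The survival gene Mcl1 rose too, with 84.7 and 83.6 FPKM at 24 h, against 27.7 and 27.9 FPKM at 0 h. The survival gene Bcl2l1 and the pro-death genes Bid and Bik fell by 0.42, 0.95 and 0.74. Both arms of the family therefore held genes of each direction.

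The integrated stress and unfolded protein responses also split, with 11 of 24 genes higher and 7 lower, or 13 and 4 after quantile normalisation. Ddit3, which encodes CHOP, had 23.3 and 20.9 FPKM at 24 h, against 2.27 and 2.46 FPKM at 0 h. Ppp1r15a, which encodes the eIF2α phosphatase subunit GADD34, had 22.0 and 20.2 FPKM at 24 h, against 2.26 and 2.14 FPKM at 0 h. Dnajb9, a chaperone cofactor of the endoplasmic reticulum, rose by 1.97, and its row reaches past the gene. Folding and degradation factors of the same organelle were lower: Herpud1, Pdia4 and Hyou1 fell by 1.15, 0.94 and 0.81.

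Among cytosolic heat shock genes 8 of 15 were higher and 2 lower. The row of Hspa1b, which also spans Hspa1a and so covers the inducible HSP70 pair, had 34.8 and 32.2 FPKM at 24 h, against 1.97 and 2.60 FPKM at 0 h. Hsp90aa1, the inducible HSP90 in a row with 1700001K19Rik, rose by 1.39 and the cofactor Dnajb1 by 1.13. The constitutive Hspa8 had 388 and 371 FPKM at 24 h, against 603 and 635 FPKM at 0 h. Inducible and constitutive HSP70 rows thus had changes of opposite sign.

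NRF2 targets, which make antioxidant enzymes, were divided, 11 of 25 higher and 8 lower, with 3 lower after quantile normalisation and with the same total without mitochondrial rows. Hmox1, heme oxygenase 1, had 54.5 and 51.9 FPKM at 24 h, against 11.8 and 12.6 FPKM at 0 h. Srxn1, sulfiredoxin, had 72.7 and 69.7 FPKM at 24 h, against 18.9 and 19.1 FPKM at 0 h. Tkt, transketolase of the pentose phosphate pathway, fell by 0.65. In the ferroptosis list 5 of 15 were higher and 3 lower, and scaling to the total without mitochondrial rows made this 10 and 1. The ferritin heavy chain Fth1, at 1615 and 1563 FPKM at 24 h and 1633 and 1670 FPKM at 0 h, was not called (limma adjusted p = 0.47).

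Genes that carry or process cisplatin were mostly lower, 12 of 18 with 3 higher (median 0.58 below all tested rows). Slc22a2, the organic cation transporter OCT2, had 54.8 and 57.8 FPKM at 24 h, against 114 and 116 FPKM at 0 h. The copper transporter Slc31a1 fell by 0.86. The enzymes that turn glutathione conjugates of cisplatin into toxic thiols, Ggt1, Anpep, Dpep1 and Kyat1 in a row with Spout1, fell by 1.08, 1.59, 1.29 and 0.85. A multidrug pump row named Abcb1b, which also spans Abcb1a and Abcb4, had 7.25 and 6.31 FPKM at 24 h, against 3.96 and 4.18 FPKM at 0 h. Gsta4 and Ggt5 were the other members called higher. Lrrc8d, a subunit of the volume-regulated anion channel that is known in human cells to let platinum drugs in, had 0.801 and 0.764 FPKM at 24 h, against 10.9 and 11.7 FPKM at 0 h, in a row with Gm42166. The obligatory subunit Lrrc8a, in a row with Phyhd1 and Nup188, fell by 0.56. Of 4 tested subunits of this channel 3 were lower, and Lrrc8c was higher by 0.38.

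In the epidermal growth factor family 3 of 9 tested genes, all ligands, were higher and 4 were lower, 3 receptors and 1 inhibitor. The ligand Tgfa and the receptor Erbb4 were not called, with Tgfa at 0.514 and 0.428 FPKM at 24 h and 0.408 and 0.596 FPKM at 0 h, and Erbb4 at 3.16 and 3.62 FPKM at 24 h and 3.98 and 4.21 FPKM at 0 h. Hbegf, a ligand shed from stressed epithelium (chromosome 18, 36504929 to 36516260), had 80.1 and 85.3 FPKM at 24 h, against 8.59 and 8.79 FPKM at 0 h, a log2 fold change of 3.11 ± 0.0759 (limma adjusted p = 2.7e-08). Btc, another ligand, rose by 0.73, and Areg, with 0.390 and 0.463 FPKM at 24 h, was listed at 0 in both 0 h libraries. The receptors Erbb2, Erbb3 and Egfr, the last in a row with Ppp3r1, fell by 1.28, 1.08 and 0.76. Errfi1, a feedback inhibitor of the receptors, had 67.3 and 65.8 FPKM at 24 h, against 163 and 149 FPKM at 0 h.

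In the IL-6 family, with STAT3 and SOCS genes, 9 of 16 were higher and 2 lower (median 0.64 above all tested rows). The cytokine Lif had 2.66 and 2.61 FPKM at 24 h, against 0.0380 and 0.0576 FPKM at 0 h. The feedback inhibitor Socs3 had 9.03 and 8.56 FPKM at 24 h, against 0.580 and 0.429 FPKM at 0 h. Of its receptor chains, Osmr, for oncostatin M, had 11.2 and 10.6 FPKM at 24 h, against 2.88 and 3.72 FPKM at 0 h, while Lifr had 11.8 and 10.9 FPKM at 24 h, against 20.3 and 20.2 FPKM at 0 h. Il6st, the shared chain, had no row under its own name.

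Of 21 interferon-stimulated genes 18 were higher and 1 lower, and none was lower after quantile normalisation. Ifit1, an RNA-binding antiviral protein, had 6.21 and 7.01 FPKM at 24 h, against 1.12 and 0.967 FPKM at 0 h. Gbp2, Oasl2 and Irf1 rose by 1.26, 1.07 and 0.76. Of 19 chemokines and cytokines 11 were higher and 2 lower. The neutrophil chemokine Cxcl2 had 1.63 and 1.66 FPKM at 24 h, against 0.0643 and 0.0886 FPKM at 0 h. The monocyte chemokine Ccl2 and the alarmin Il33 rose by 1.19 and 1.21.

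Of 23 ribosome biogenesis genes 15 were higher, 3 lower and 5 not called (median 0.56 above all tested rows). With all libraries scaled to the same median, 16 of them were higher and 1 lower. Nop58, a core protein of box C/D snoRNA particles, had 25.1 and 24.2 FPKM at 24 h, against 4.29 and 4.54 FPKM at 0 h. Its partner Nop56 had 35.1 and 35.5 FPKM at 24 h, against 7.36 and 7.52 FPKM at 0 h. Nucleolar Gnl3, Npm1 and Ncl rose by 2.19, 1.50 and 1.36. Zfas1, a snoRNA host transcript, had 17.1 and 14.2 FPKM at 24 h, against 3.81 and 3.91 FPKM at 0 h. Of 29 proteasome genes 18 were higher, 2 lower and 9 not called, or 26 higher and 1 lower after quantile normalisation, with Psmc1 at 74.2 and 68.0 FPKM at 24 h, against 36.3 and 34.1 FPKM at 0 h.

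Proximal tubule transport genes fell across substrates. Of 17 genes of phosphate and sodium transport 15 were lower and 2 higher (median 1.12 below all tested rows). Slc34a1, the main phosphate transporter of the brush border (chromosome 13, 55398131 to 55414695), had 616 and 529 FPKM at 24 h, against 1396 and 1483 FPKM at 0 h. Pth1r, the receptor of parathyroid hormone, had 61.9 and 62.7 FPKM at 24 h, against 211 and 205 FPKM at 0 h. A row named for the second phosphate transporter, Slc34a3, was higher, with 209 and 197 FPKM at 24 h, against 130 and 133 FPKM at 0 h, but it also spans Nelfb, Stpg3, Tubb4b and Rnf224. The other member called higher was Slc20a1, a phosphate transporter of most cell types, with 21.0 and 10.7 FPKM at 24 h, against 2.46 and 5.47 FPKM at 0 h, in a row that reaches past the gene. Its libraries spread widely in both groups, and the call was lost without 24 h library a, without 0 h library a and in the 4 libraries alone. Where only rows confined to a single gene were counted, all 10 members were lower.

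Of 11 genes of megalin and cubilin endocytosis 9 were lower and 2 higher. Cubn, cubilin (chromosome 2, 13276247 to 13493743), had 67.7 and 67.6 FPKM at 24 h, against 264 and 285 FPKM at 0 h. Lrp2, megalin, had 563 and 415 FPKM at 24 h, against 1180 and 1430 FPKM at 0 h. The partners amnionless, Amn, and the adaptor Dab2 fell by 1.06 and 1.02. Among organic anion and cation transporters 15 of 16 were lower and none higher, and among brush border peptidases 10 of 11 were lower. The exception was Mme, neprilysin, with 15.6 and 17.0 FPKM at 24 h, against 11.7 and 13.2 FPKM at 0 h, in a row that reaches past the gene.

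Glucose and monocarboxylate transporters were lower in 9 of 10. Slc2a2, the basolateral glucose exit GLUT2, had 20.8 and 21.3 FPKM at 24 h, against 87.6 and 86.5 FPKM at 0 h. Slc2a1, GLUT1, was not called, with 14.5 and 14.7 FPKM at 24 h and 13.6 and 14.4 FPKM at 0 h. Of 15 amino acid and peptide transporters 12 were lower and 1 higher, with 3 higher after quantile normalisation. Slc7a8, an exchanger of neutral amino acids, had 18.0 and 16.0 FPKM at 24 h, against 85.2 and 88.0 FPKM at 0 h. Slc7a12 was the member called higher, by 0.65.

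Transcription factors of proximal tubule identity were lower in 19 of 21 and higher in 2 (median 0.93 below all tested rows). Hnf4a (chromosome 2, 163506808 to 163572915) had 43.1 and 38.0 FPKM at 24 h, against 136 and 133 FPKM at 0 h. Maf and Rxra fell by 1.87 and 1.60. The members called higher were Foxc1, with 6.19 and 5.76 FPKM at 24 h, against 2.04 and 2.07 FPKM at 0 h, and Cebpa, by 0.48. In the vitamin D, heme and iron list 12 of 15 were lower and 2 higher. Vdr, the vitamin D receptor, and Cyp27b1, which makes active vitamin D and whose row also spans Mettl1, fell by 1.58 and 0.73, so that both the maker and the breaker of the hormone were lower. The iron exporter Slc40a1 fell by 1.43 and the transferrin receptor Tfrc rose by 0.59.

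Metabolic genes fell with the transporters. Of 25 genes of fatty acid oxidation and peroxisomes 23 were lower and 1 higher (median 0.83 below all tested rows). Ehhadh, a peroxisomal oxidation enzyme, had 120 and 116 FPKM at 24 h, against 399 and 420 FPKM at 0 h. G6pc, which releases glucose from glucose-6-phosphate, had 41.2 and 41.1 FPKM at 24 h, against 234 and 227 FPKM at 0 h. TCA cycle genes were lower in 19 of 21, but in 9 after quantile normalisation and in 11 with the same total without mitochondrial rows. Of 24 genes of creatine, inositol and amino acid breakdown 21 were lower, and of 18 cytochrome P450 and conjugation genes 15.

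Of 9 gluconeogenesis genes 7 were lower and none higher, and of 14 genes of kynurenine and NAD synthesis 10 were lower and none higher. Pck1, which makes phosphoenolpyruvate for glucose synthesis, had 276 and 232 FPKM at 24 h, against 1132 and 1263 FPKM at 0 h. Kmo, kynurenine monooxygenase, had 20.3 and 20.9 FPKM at 24 h, against 41.2 and 43.1 FPKM at 0 h, in a row that reaches past the gene. Mitochondrially encoded genes were 1 higher and 6 lower of 10, but 3 higher and 1 lower after quantile normalisation; the 6 include mt-Co1, whose 0 at 24 h cannot be read as a level.

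The pyruvate dehydrogenase kinases, which shut off pyruvate entry into the TCA cycle, changed in opposite directions. Pdk4 had 17.4 and 17.5 FPKM at 24 h, against 7.34 and 8.12 FPKM at 0 h. Pdk2 had 1.81 and 1.99 FPKM at 24 h, against 13.0 and 13.8 FPKM at 0 h. Their libraries did not overlap. Among 21 glycolysis genes 16 were lower and 3 higher, with pyruvate kinase Pkm higher by 0.61 and lactate dehydrogenase Ldha lower, at 184 and 180 FPKM at 24 h, against 346 and 340 FPKM at 0 h.

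Junction and matrix genes also held calls of both directions, beside 25.8% higher and 40.0% lower among all tested rows. Of 18 claudin and tight junction genes 7 were higher and 8 lower. Cldn4, a sealing claudin of distal segments (chromosome 5, 134944914 to 134946781), had 63.6 and 65.3 FPKM at 24 h, against 6.14 and 5.79 FPKM at 0 h. Cldn2, the cation and water pore of the proximal tubule, had 12.0 and 10.2 FPKM at 24 h, against 26.7 and 30.1 FPKM at 0 h. Among 22 matrix genes 9 were higher and 9 lower. Timp1, an inhibitor of matrix proteases, rose by 2.87, while the basement membrane genes Lamb1 and Col4a4 fell by 1.57 and 1.22. Of 24 genes of the actin cytoskeleton with YAP or SRF targets 10 were higher and 5 lower, with Ankrd1 at 4.41 and 3.89 FPKM at 24 h, against 0.271 and 0.168 FPKM at 0 h, and Vil1, villin of the brush border, lower by 1.19. Clock genes were 7 higher and 6 lower of 17, with Ciart higher by 1.45 and the output factor Hlf lower by 1.78; the time of day of collection is not in the labels.

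**Figure D2:**
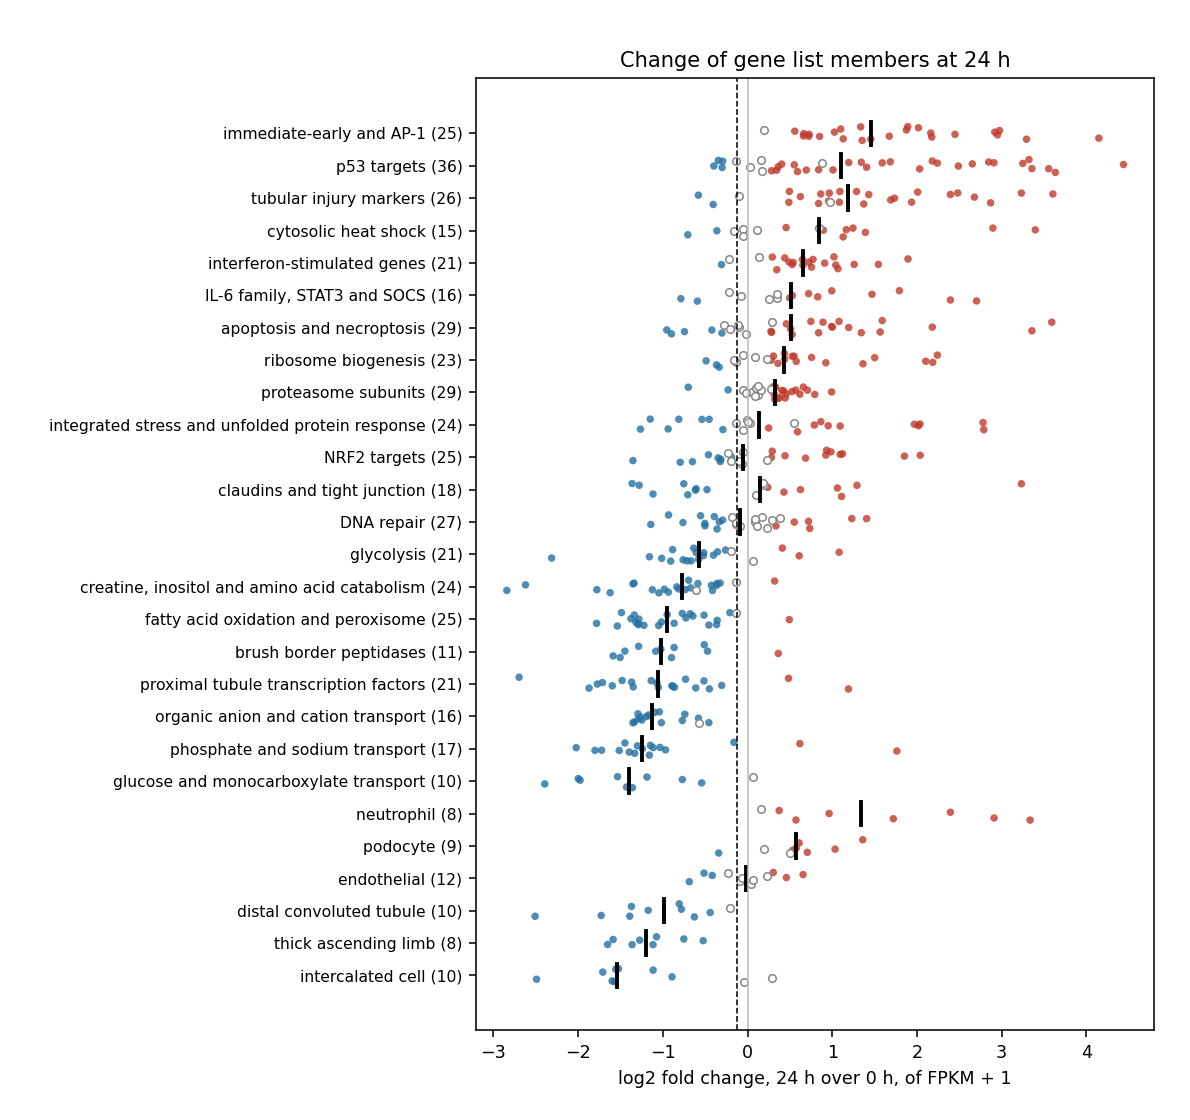
Log2 fold change of FPKM + 1, 24 h over 0 h, for each tested member of 27 gene lists, with the number tested after each name. Filled points passed adjusted p 0.05 in limma, red higher and blue lower at 24 h, open points did not; bars mark each list's median and the dashed line the median of all tested rows at -0.12. Immediate-early genes lie almost all to the right and transporter lists almost all to the left, while NRF2, DNA repair and claudin lists straddle the line.

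Markers of the isolate's cells were read beside these lists. Proximal tubule markers were present in every library: the S1 and S2 markers summed to 1206 and 1044 FPKM at 24 h, against 2947 and 3041 FPKM at 0 h, and all 8 tested were lower. Of 10 S3 markers 9 were lower, summing to 713 and 605 FPKM at 24 h, against 1550 and 1806 FPKM at 0 h. In such bulk samples fewer cells of a type and less RNA per cell cannot be told apart.

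Other nephron segments were also present, and most of their markers were lower. All 8 tested thick ascending limb markers were lower, summing to 335 and 332 FPKM at 24 h, against 657 and 649 FPKM at 0 h. The segment's markers Umod and Egf had no row under their own names. A merged row named Pik3c2a, which spans Umod among other genes, was higher. It had 545 and 491 FPKM at 24 h, against 284 and 271 FPKM at 0 h, and its values cannot be divided between those genes. Of 10 distal convoluted tubule markers 9 were lower, summing to 251 and 257 FPKM at 24 h, against 647 and 631 FPKM at 0 h. Intercalated cell markers were lower in 8 of 10, with sums of 33.2 and 33.4 FPKM at 24 h, against 84.3 and 88.2 FPKM at 0 h. Slc4a1, the anion exchanger of acid-secreting cells and of red cells, had 0.354 and 0.425 FPKM at 24 h, against 6.93 and 6.69 FPKM at 0 h. All 6 tested erythroid markers were lower, though without 0 h library a 4 passed the filter and 3 were called, and their sums were 228 and 259 FPKM at 24 h, against 414 and 419 FPKM at 0 h.

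Principal cell markers were mixed, 4 of 11 higher and 4 lower. The water channel Aqp2 rose by 0.79, whereas Hsd11b2, above, and the sodium channel subunit Scnn1g fell, Scnn1g by 1.64. Thin limb markers had 3 of 5 higher. Slc14a2, the urea transporter of the inner medulla and descending limb, had 33.9 and 26.7 FPKM at 24 h, against 5.43 and 6.53 FPKM at 0 h, and Bst1 rose by 1.91.

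Neutrophil markers were higher in 7 of 8 tested and lower in none; when the 4 libraries were fitted alone 4 passed the filter and all 4 were higher. Lcn2, which injured tubules also make and whose row also spans 1110008P14Rik, rose by 2.40. All tested members but Lcn2 were below 1 FPKM at 0 h and passed the filter only through later libraries, so the count is a description. Without Lcn2 the list's sums were 29.3 and 27.7 FPKM at 24 h, against 1.08 and 1.32 FPKM at 0 h. S100a9 had 9.85 and 8.89 FPKM at 24 h, against 0.387 and 0.367 FPKM at 0 h. These sums rose beside the chemokine and interferon lists, and their part in those results was not tested.

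Macrophage and monocyte markers were 5 higher and 4 lower of 12. Cd14 and Itgam each rose by 1.22. The antigen presentation genes Cd74 and H2-Ab1 fell, with Cd74 at 32.9 and 30.9 FPKM at 24 h, against 95.6 and 82.7 FPKM at 0 h. The list summed to 134 and 117 FPKM at 24 h, against 225 and 193 FPKM at 0 h, leaving out Ly6c2, whose row also spans other Ly6 genes. Cd74 and H2-Ab1 carried the fall of this sum, H2-Ab1 with 17.9 and 17.8 FPKM at 24 h, against 69.0 and 57.1 FPKM at 0 h. Mrc1, C1qa and C1qc, the last in a row with C1qb, were called higher, and Csf1r lower. The sum therefore does not give the direction of the list as a whole. No T or NK cell marker of 1 tested was called, and those cells' markers summed to 1.46 and 1.38 FPKM at 24 h, against 3.35 and 2.84 FPKM at 0 h. B cell markers without Cd79a, whose row spans many genes, summed to 1.18 and 0.835 FPKM at 24 h, against 2.26 and 2.12 FPKM at 0 h.

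Of 9 podocyte markers tested 6 were higher and 1 was lower, summing to 74.4 and 78.3 FPKM at 24 h, against 57.0 and 52.1 FPKM at 0 h. Endothelial markers were 3 higher and 3 lower of 12, with sums of 134 and 121 FPKM at 24 h and 119 and 115 FPKM at 0 h. Fibroblast and pericyte markers were 5 higher and 4 lower of 11. The pericyte gene Rgs5 had 14.6 and 14.7 FPKM at 24 h, against 3.92 and 3.25 FPKM at 0 h, and renin, Ren1, rose by 1.49, while the pericyte proteoglycan Cspg4 fell by 1.21. Parietal epithelial markers were 2 higher and 3 lower of 6.

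Some rows differed at 24 h from every other time, not from 0 h alone. Under limma, 2.21% of tested rows were higher at 24 h than at 0, 48 and 72 h, and 3.48% were lower than at all 3, each difference at adjusted p under 0.05. The 3 differences share the 24 h libraries. That made 612 rows, or 404 without 24 h library a, and 238 of them were higher, or 127 without it. Of the 15 largest rises 3 were in the higher set, and of the 15 largest falls 3 were in the lower set. The higher set was led by Tac1, which encodes the neuropeptide substance P. Tac1 was listed at 0 in both 0 h libraries and had 6.81 and 5.37 FPKM at 24 h, 2.51 and 2.68 FPKM at 48 h, and 1.40 and 1.89 FPKM at 72 h. Tmigd1, an adhesion protein of renal and intestinal epithelium, had 71.0 and 79.4 FPKM at 0 h, 119 and 137 FPKM at 24 h, 61.9 and 59.9 FPKM at 48 h, and 37.4 and 34.1 FPKM at 72 h. Cox4i1, a subunit of cytochrome c oxidase, had 26.4 and 22.9 FPKM at 0 h, 42.9 and 47.9 FPKM at 24 h, 11.4 and 12.8 FPKM at 48 h, and 17.2 and 19.8 FPKM at 72 h. The nucleolar Mphosph10, the kinase Plk3 in a row with Btbd19, and the Hspa1b row were also among the first 8. Zfp965 was among them as well and lost its call in some settings.

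In the lower set, Cyp24a1 led, with 15.6 and 13.5 FPKM at 0 h, 1.77 and 1.32 FPKM at 24 h, 4.24 and 9.29 FPKM at 48 h, and 6.89 and 8.93 FPKM at 72 h. The first 8 rows also held the collagen genes Col15a1, Col14a1 and Col6a3, Fbln5, of elastic fibres, and Lama2, a laminin chain. Fbln5 had 30.0 and 28.3 FPKM at 0 h, 8.40 and 7.32 FPKM at 24 h, 18.8 and 17.7 FPKM at 48 h, and 25.5 and 26.7 FPKM at 72 h. Col15a1 had 6.03 and 5.60 FPKM at 0 h, 2.22 and 1.15 FPKM at 24 h, 6.99 and 6.11 FPKM at 48 h, and 12.2 FPKM in both 72 h libraries. Cx3cl1, a membrane-bound chemokine in a row with Ccl17, was the remaining member beside Hsd11b2. Hsd11b2 was at 6.54 and 5.51 FPKM at 48 h and at 13.6 and 13.7 FPKM at 72 h. A lowest level at 24 h among the 4 times was the rule that selected these genes.

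**Figure D3:**
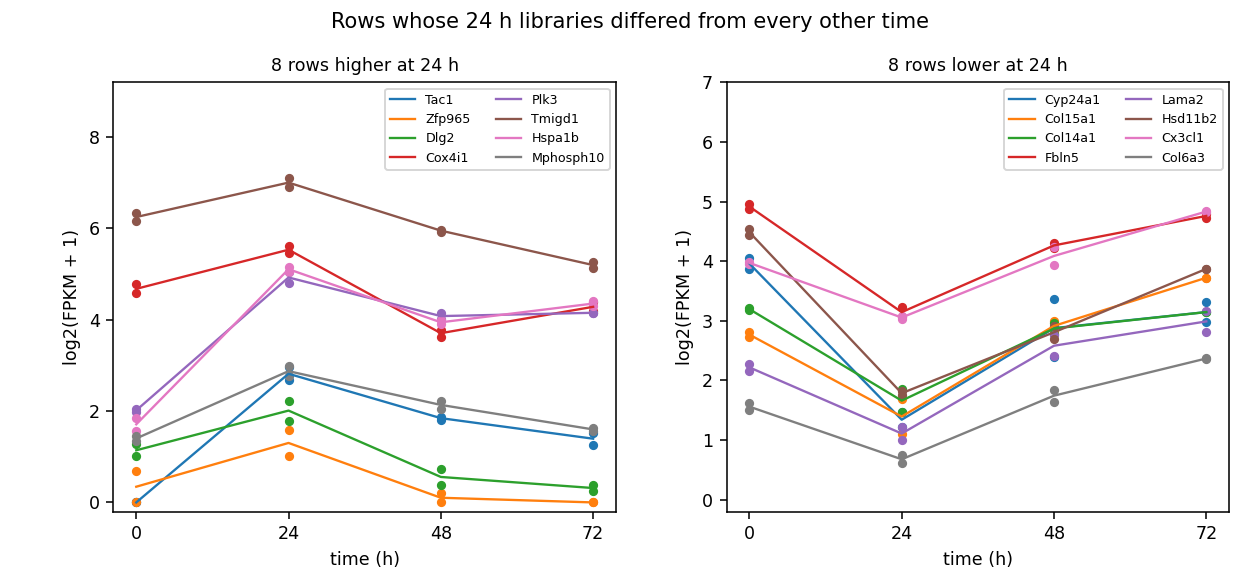
log2(FPKM + 1) at 0, 24, 48 and 72 h for the first 8 rows higher (left) and the first 8 lower (right) at 24 h than at every other time; points are the 2 libraries of each time and lines join their means. Tac1 starts at 0 and peaks at 24 h with 6.81 and 5.37 FPKM, and Cyp24a1 dips to 1.77 and 1.32 FPKM.

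The change at 24 h also ran with the genomic length of a row. The median log2 fold change was 0.14 in 602 rows under 5 kb, -0.09 in 3334 rows of 20 to 50 kb, -0.38 in 1157 rows of 100 to 200 kb, and -0.47 in 562 rows of 200 to 500 kb. Over the same classes the share called higher was 39.0%, 28.6%, 12.4% and 9.25%, and the share called lower 25.1%, 37.3%, 55.6% and 60.9%. In the 236 rows over 500 kb, most of them merged or reaching past their gene, the median was -0.37. Among rows that keep to their own gene the medians under 5 kb and at 200 to 500 kb were 0.14 and -0.47. The order was present at each level: among rows under 5 FPKM at 0 h the median was 0.24 below 20 kb and -0.19 above 100 kb, and among rows above 20 FPKM -0.30 and -0.66. The order of the shortest and longest of these classes was the same in each of the 4 pairings of a 24 h with a 0 h library. Rows in the lower set at 24 h had a median length of 90.2 kb and those in the higher set 17.0 kb, against 33.3 kb for all tested rows. These are descriptions across rows, which are not replicates, and they carry no test.

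**Figure D4:**
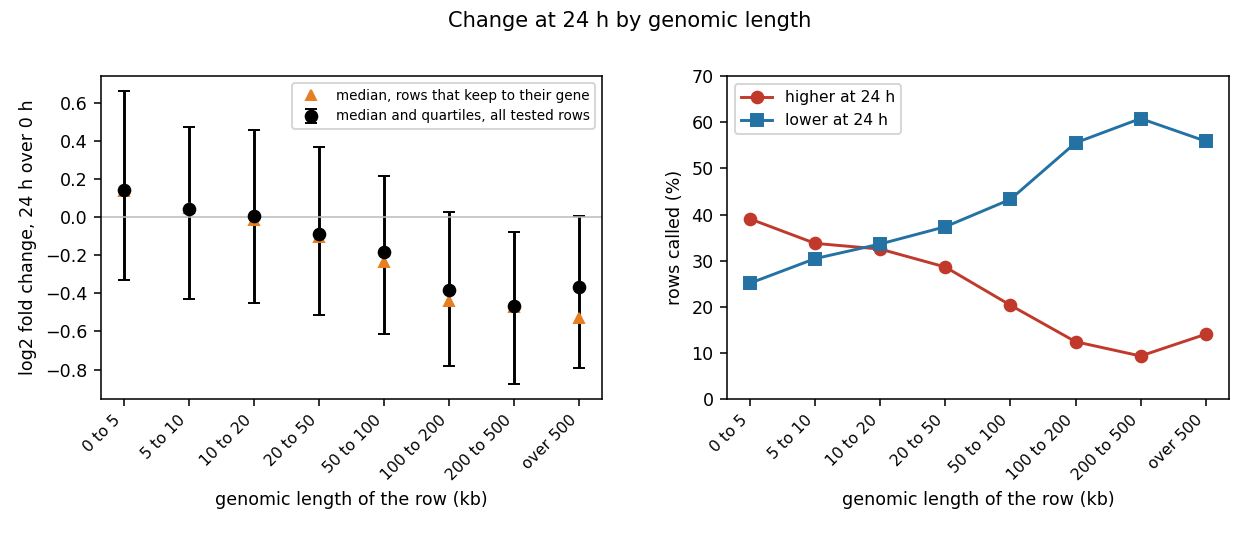
Left, median and quartiles of the log2 fold change of FPKM + 1, 24 h over 0 h, by genomic length of the row, with triangles for rows that keep to their own gene. Right, the percentage of tested rows in each length class that limma called higher or lower at 24 h. The share called higher goes down from 39.0% under 5 kb to 9.25% at 200 to 500 kb while the share called lower goes up.

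For circRNAs, edgeR's quasi-likelihood test with Benjamini-Hochberg adjustment called 1.78% of 1574 tested circRNAs, 28 in all, of which 17 were higher (1.08%) and 11 lower (0.699%). Without 0 h library b it called 13, 7 higher and 6 lower, and 7 were lower without 0 h library a or without 24 h library a. In all 28 the normalised counts of the 24 h and 0 h libraries did not overlap. The test favours such circRNAs and the share over all 1574 was not counted, so this adds no support. The median tested circRNA had a mean count of 4.0 over the 4 libraries, so smaller changes were not detectable at this depth. Counts below are reads in each library.

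The clearest rise was in Arhgap5. Its circRNA on chromosome 12, 52516079 to 52519967, had 133 and 152 reads at 24 h, against 20 and 25 reads at 0 h, a log2 fold change of 2.45 ± 0.262 (edgeR adjusted p = 8.6e-18). The host row, which also spans Nubpl, was at 47.2 and 55.4 FPKM at 24 h, against 35.8 and 39.9 FPKM at 0 h. The longer circRNA that begins at the same position and ends at 52542636 had 18 and 27 reads at 24 h, against 2 and 7 reads at 0 h, and its call was lost in DESeq2 and without 1 library. Tulp4 (chromosome 17, 6137211 to 6139156) had 207 and 116 reads at 24 h, against 33 and 42 reads at 0 h. Stk39, the kinase SPAK that controls salt transporters, had 117 and 143 reads at 24 h, against 28 and 50 reads at 0 h, and its host row rose by 1.15.

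Among circRNAs with fewer reads, that of Smad4, the shared SMAD of TGF-β signalling, had 38 and 35 reads at 24 h, against 8 and 11 reads at 0 h, while its host row was not called. Scaper had 57 and 54 reads at 24 h, against 14 and 18 reads at 0 h, also with no call of the host. Zfp644 had 33 and 21 reads at 24 h, against 2 and 4 reads at 0 h. Strn3, a scaffold of the STRIPAK complex, had 22 and 35 reads at 24 h, against 5 and 4 reads at 0 h. Hnrnpu, an RNA-binding protein, had 95 and 57 reads at 24 h, against 24 and 31 reads at 0 h. The 24 h libraries were above the 0 h libraries in each, and the calls of Smad4, Strn3 and Hnrnpu were lost without 0 h library b.

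The largest fall by p was in a circRNA with ends in different genes, Ugt3a1 and Ugt3a2, glycosyltransferases (chromosome 15, 9311749 to 9365377). It had 276 and 305 reads at 24 h, against 595 and 748 reads at 0 h, a log2 fold change of -1.43 ± 0.145 (edgeR adjusted p = 1.6e-19). Another with ends in Cyp2j9 and Cyp2j5, epoxygenases of arachidonic acid (chromosome 4, 96583977 to 96658752), had 201 and 182 reads at 24 h, against 265 and 407 reads at 0 h. Genes of both families have close copies, so the placement of these reads is uncertain. Aass, an enzyme of lysine breakdown, had 191 and 204 circular reads at 24 h, against 315 and 431 reads at 0 h, beside a host row that fell by 1.59. Mlxipl, the glucose-sensing factor ChREBP, had 42 and 62 reads at 24 h, against 83 and 128 reads at 0 h, and its host row was not called. Bnc2 had 57 and 49 reads at 24 h, against 106 and 123 reads at 0 h.

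Of 18 genes known to act in making or breaking down circRNAs 7 were higher and 5 lower in linear RNA, or 6 and 1 after quantile normalisation. Where circRNA and host row could both be tested, called circRNAs did not run against their hosts. Of 13 called higher 9 had a host row called higher, none lower, and of 7 called lower 5 had a host row called lower, none higher. Among all 1224 circRNAs with a tested host row, 205 had a host row called higher and 541 a host row called lower. Over all circRNAs of hosts called lower, 541 in 350 rows, the median circRNA change was -0.21 and the median host change -0.63. Over those of hosts called higher, 205 in 143 rows, the medians were 0.29 for circRNAs and 0.55 for hosts. In 67 circRNAs of 54 host rows that were lower by at least 2-fold, the median circRNA change was -0.18 and the median host change -1.19. Hosts in these groups were picked by their own change, which favours a larger host median, and the 2 scales were normalised differently. Over all 1224 circRNAs the median change relative to the host was 0.18. No smaller response of circRNAs is therefore read from these medians.

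The difference between circRNA and host was tested in 1224 circRNAs, as log2 of the normalised circRNA count minus log2 of host FPKM, each with 1 added. A host row's FPKM may include reads from inside its circles, and this was not tested. limma called 0 of 1224 (0.00%), with 171 at an unadjusted p under 0.05 and a smallest adjusted p of 0.20. Restricted to a mean count of at least 5 it called 2, both higher. A version of the test with a variance trend on the count level, added after those calls had been seen, called 38 (3.10%), of which 26 were higher (2.12%) and 12 lower (0.980%) relative to the host. That version called 10 without 24 h library a, 18 without 0 h library a and 25 without 0 h library b, and with each library centred on its median 10 were higher and 19 lower, which turns the balance of directions. Its calls are described here as dependent on that choice. Of its 26 higher, 17 had a host row called lower, and of its 12 lower, 9 had a host row called higher. The host is part of the value tested, and 746 of all 1224 tested circRNAs had a host row called, so nothing is read from these counts.

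Slc8a1, the sodium-calcium exchanger NCX1, held the most abundant circRNA (chromosome 17, 81647809 to 81649638). It had 809 and 745 reads at 24 h, against 627 and 735 reads at 0 h, and after normalisation for library size 796 and 733 at 24 h, against 856 and 714 at 0 h. It was not called (log2 fold change -0.04 ± 0.123, SE; edgeR adjusted p = 0.95), and the sign turned in some settings. The host row, which may include reads from inside the circle, had 10.9 and 10.5 FPKM at 24 h, against 64.8 and 66.3 FPKM at 0 h, a fall by 2.51. Relative to the host the circle was higher by 2.47 on the log2 scale, with limma adjusted p = 0.20 without the trend, 0.049 over circRNAs with a mean count of at least 5, and 3.9e-31 with the trend. Ankib1 had 155 and 179 reads at 24 h and 118 and 172 reads at 0 h. After normalisation these were 153 and 176 at 24 h and 161 and 167 at 0 h. Its host row fell by 0.78, and its call relative to the host, made with the trend, was lost without 0 h library a. In the other direction, the circle of Eed, a Polycomb subunit, had 64 and 70 reads at 24 h and 51 and 51 reads at 0 h, while its host row, which reaches past the gene, rose by 1.57. Esco1, a cohesin acetyltransferase, had 17 and 25 circular reads at 24 h, against 24 and 50 reads at 0 h, while its host row rose by 0.90.

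**Figure D5:**
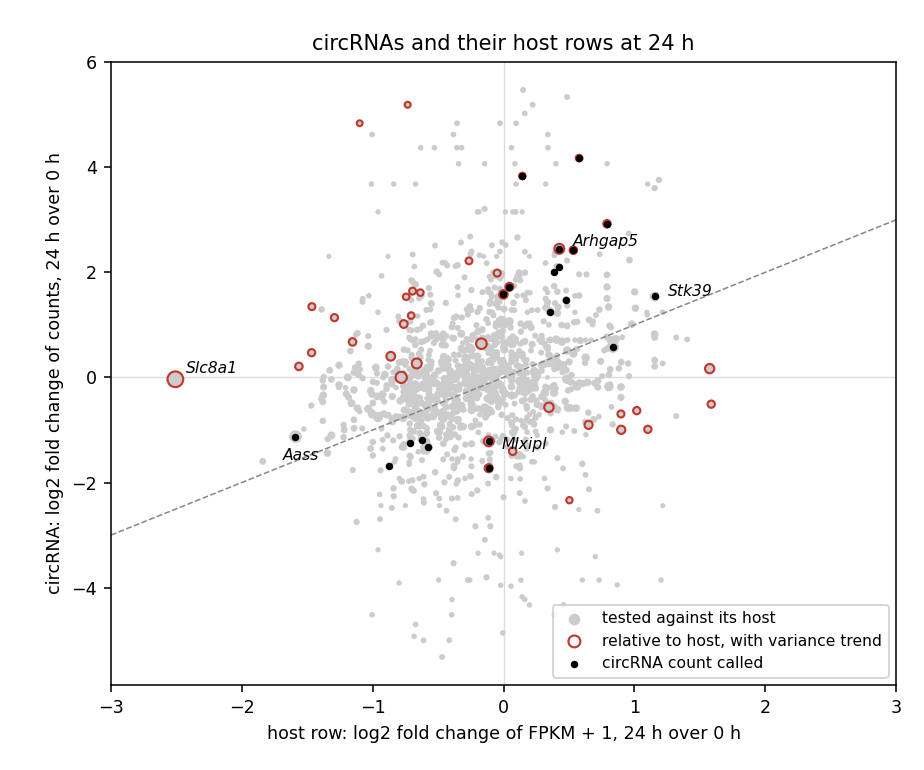
Log2 fold change at 24 h over 0 h of each circRNA's count against that of its host row's FPKM + 1, for 1224 circRNAs; points grow with the mean count, black points were called in edgeR, red rings mark circRNAs called relative to their host in the version with a variance trend, and the dashed line marks equal change. Slc8a1 lies far left at a host change of -2.51 with its circRNA at -0.04, and Arhgap5 lies high with a host change of 0.43.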

How the data were processed

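Linear RNA was deposited as FPKM, a unit given per the file headers, and circular RNA as whole-number counts for each back-splice pair. Per the submitters' processing notes, which give no role or order, the tools were Bowtie 0.12.2, TopHat2 and Cufflinks and the build mm10; no source used here names what called the circRNAs. Because columns have letters and labels have replicate numbers, a column was assigned to a time alone, and library values are given a before b. Another 8 columns of the circRNA table were not used.

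Rows with at least 1 FPKM in 2 of the 8 libraries (10757 of 21874) were tested with limma 3.58.1 in R 4.3.3 (intensity trend, robust) on log2(FPKM + 1), which understates changes of low rows, in 1 fit of all 8 libraries. Of 2163 circRNAs, 1574 were tested, those counted in 4 or more of all 8 libraries, with edgeR 4.0.16 (TMM, robust). Circle minus host was tested with limma (robust, no trend), which recovered few changes on simulated data; a variance trend on the mean log2 circRNA count was added after this test had made no call. Tests were 2-sided with Benjamini-Hochberg adjustment at 0.05 and were tested on simulated data. No p is given for 2 libraries against 2 of a single value. Depth of the linear libraries is unknown. A row keeps to its own gene within 2000 bases of the RefSeq span; others reach past it or are merged. No source used here says whether counting used strand, so overlapping and antisense genes may share reads.

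The members and gene lists were chosen with earlier results of these data known. Named genes are the 15 largest rises and falls with non-overlapping libraries, none at 0 and no predicted symbols, up to 4 members each way of each list by p, Havcr1, Lcn2, Cdkn1a, Slc34a1, Lrp2, Slc22a2, Mt1 and Mt2, up to 8 rows each way that stand apart at 24 h, and, for circRNAs, up to 8 each way, the 5 with the highest counts and up to 5 each way relative to host, where none was called, and rows listed at 0 in both libraries of 1 group and above 10 FPKM in the other. Ankib1, Eed and Esco1, called with the trend, and other list members, named for their role or as exceptions, were chosen after their values were seen. The differences between libraries a and b correlated across rows with r = -0.24 between 24 and 0 h, 0.39 between 24 and 72 h, 0.15 between 48 and 0 h, and -0.15 to 0.023 between the other times. Not every pair was over 0.1, so the letters were not treated as pairs. Alternatives were other scalings, filters, pseudocounts, DESeq2 1.42.0, a replicate block and leaving out each library.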

Additional observations from a re-analysis of the deposited data

How the results depend on the processing

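Of the linear counts, restriction to rows that keep within their own gene gave 4286 calls (1625 higher, 2661 lower), and 379 rows apart from all other times at 24 h (128 higher). Scaling to the same total without mitochondrial rows gave 152 higher and 591 lower rows apart at 24 h. Leaving out 1 library moved the number apart between 404, without 24 h library a, and 548, without 24 h library b, and the number higher between 127 and 289. For circRNAs DESeq2 called 18 (6 lower), and leaving out 1 library gave 13, without 0 h library b, to 30, with 7 to 17 higher and 6 to 13 lower. Relative to the host, limma called 0 also under each alternative except a mean count of at least 5, which gave 2, both higher, and a variance trend, which gave 38 (26 higher, 12 lower). With that trend total-count scaling gave 44 higher, host rows within their own gene 19 (14 higher, 5 lower), and centring each library 10 higher and 19 lower. Leaving out 1 library gave 10, without 24 h library a, to 30, with 8 to 18 higher and 2 to 12 lower. The cause of these shifts was not tested. A replicate block by column letter gave 7018 linear calls, 555 rows apart at 24 h, 26 circRNA calls, 0 relative to the host, and with the trend 22 (15 higher, 7 lower).

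Quantile normalisation turned the log2 fold change of Aen to 0.0078, Gclm to 0.057, Ddb1 to 0.0080, Psma4 to 0.12 and Hnrnpm to 0.038, and the total without mitochondrial rows that of Psma4 to 0.0045. The Slc8a1 circRNA had 0.016 in DESeq2, 0.014 with RLE factors, 0.068 with total counts, 0.046 with a mean count of at least 5, and -0.12 to 0.13 on leaving out 1 library. With or without the trend, Gigyf2 relative to its host ran between -0.51 and 0.018 on leaving out 1 library. With 1 library left in a group, that library is assumed to vary like the others. Limits are 2 libraries a group, unknown linear depth, low circRNA counts, and a pseudocount of 1 that compresses low rows.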
